A study of Mus musculus with 6 samples.

Results

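The genes described here are the matrix metalloproteinases (Mmps), the Adamts proteases with the related Adamts-like proteins, and the tissue inhibitors of metalloproteinases (Timps). Members were all genes whose single gene symbol on the array platform began with Mmp and a digit or with Adamts, or was Timp and a digit. This gave 49 genes out of 19938 measured, namely 22 Mmps, 18 Adamts proteases, 5 Adamts-like proteins and 4 Timps. The study measured 6 Affymetrix Mouse Gene ST 1.0 arrays. In 3 of them the RNA came from Scf-GFP+ bone marrow cells of heterozygous Scf-GFP knockin mice, and in the other 3 from unselected bone marrow (whole marrow) of wild type mice. All mice were young adults of C57BL/6 background, and each sample held 5000 cells sorted into Trizol. The knockin allele marks cells that express the stem cell factor gene, Kitl, with green fluorescent protein. Scf-GFP+ cells were sorted in 2 passes per the labels, which name no repeat sort for whole marrow, so cell population, genotype and sorting differed together and cannot be told apart. Kitl itself was at 10.83, 10.24 and 10.15 on the log2 scale in the Scf-GFP+ arrays and at 4.90, 4.56 and 5.05 in whole marrow, in accord with the labels. The labels call the aliquots independent without saying whether they came from separate mice, so each p-value reflects the variation among these 6 arrays, which may be partly technical. Sex-linked genes, given below, set Scf-GFP+ replicate 3 apart from replicates 1 and 2, so the Scf-GFP+ aliquots did not all come from 1 mouse.

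Mmps and Adamts proteases are zinc-dependent endopeptidases that cut collagens, proteoglycans and other matrix proteins, and Timps bind them in their active form and block them. Secreted Mmps are made as inactive precursors, membrane-type Mmps act at the cell surface, and Adamts proteases carry thrombospondin repeats that anchor them in the matrix. Adamts-like proteins share these repeats but have no protease domain. In bone, Mmp13 and Mmp14 take part in collagen turnover, while neutrophils store Mmp8, Mmp9 and Mmp25 in granules.

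The mouse collagenases, Mmp3, Mmp10, Mmp7 and some further Mmps lie side by side on chromosome 9. In the RefSeq gene table of GRCm38.p6 their order is Mmp13, Mmp12, Mmp1b, Mmp3, Mmp1a, Mmp10, Mmp8, Mmp27, Mmp20 and Mmp7, which makes 10 Mmp genes among 13 listed genes. Sequences just before the start site are shown for 8 of them. Of these, 7 share the AP-1 motif, and only Mmp13 among the 7 was called. Mmp8 lacks the motif and was the other called gene of the cluster. RefSeq windows of GRCm38.p6 lie at chr9:7272384-7272513 on the plus strand for Mmp13, at chr9:7347244-7347373 on the plus strand for the second listed start of Mmp12, and at chr9:7388027-7388156 on the minus strand for Mmp1b. Those of Mmp3, Mmp1a and Mmp10 lie on the plus strand at chr9:7445692-7445821, chr9:7464011-7464140 and chr9:7502212-7502341. Those of Mmp8 and of the first listed start of Mmp7 lie on the plus strand at chr9:7558299-7558428 and chr9:7691960-7692089. Each window is 130 bases long, is written 5′ to 3′ and ends at the last base before the start site. Capitals mark TGACTCA (the AP-1 motif), TGTGGT (the Runx motif) and TATAAA (the TATA motif), each searched on both strands.
Mmp13: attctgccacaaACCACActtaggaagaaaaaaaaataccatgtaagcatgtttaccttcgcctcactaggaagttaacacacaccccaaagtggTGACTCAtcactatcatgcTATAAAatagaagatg
Mmp12: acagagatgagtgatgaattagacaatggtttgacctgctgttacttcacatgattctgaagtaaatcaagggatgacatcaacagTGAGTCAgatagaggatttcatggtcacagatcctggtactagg
Mmp1b: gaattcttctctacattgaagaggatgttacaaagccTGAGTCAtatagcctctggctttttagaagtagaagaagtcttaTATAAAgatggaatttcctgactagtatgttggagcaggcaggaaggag
Mmp3: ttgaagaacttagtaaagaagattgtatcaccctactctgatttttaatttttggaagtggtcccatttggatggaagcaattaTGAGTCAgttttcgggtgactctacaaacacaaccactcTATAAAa
Mmp1a: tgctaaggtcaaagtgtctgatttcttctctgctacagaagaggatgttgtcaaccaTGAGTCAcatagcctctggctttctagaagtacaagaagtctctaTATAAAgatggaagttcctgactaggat
Mmp10: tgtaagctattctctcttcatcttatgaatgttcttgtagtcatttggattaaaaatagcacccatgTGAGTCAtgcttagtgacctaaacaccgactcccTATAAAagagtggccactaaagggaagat
Mmp8: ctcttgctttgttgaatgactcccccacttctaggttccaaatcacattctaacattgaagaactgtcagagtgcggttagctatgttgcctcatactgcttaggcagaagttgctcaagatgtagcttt
Mmp7: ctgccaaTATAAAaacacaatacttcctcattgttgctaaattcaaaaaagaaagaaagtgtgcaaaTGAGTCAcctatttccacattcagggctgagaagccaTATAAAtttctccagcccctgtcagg

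The AP-1 motif stood in the 250 bases before a start of Mmp13, Mmp12, Mmp1b, Mmp3, Mmp1a, Mmp10 and Mmp7, which is 7 of the 10 cluster genes. It was found in 4.46% of all 32851 RefSeq windows of that length, and in no family member outside the cluster among the 34 members with a window. The first base of the motif lay 35 bases before the start of Mmp13 and between 44 and 93 bases before the starts of the other 6. Mmp13 also held a Runx motif 118 bases before its start, a motif present in 14% of all windows and in 6 of the 34 members. The other 5 were Mmp14 and Mmp23, both called higher, and Mmp1b, Mmp27 and Mmp7, which were not called. None of the 3 motifs was found in the window of Mmp8. The TATA motif was present in 7 cluster genes, in 10 of the 34 members and in 12.4% of all windows. The Ebf motif CCCNNGGG, searched in the same windows, was present in 9 of the 34 members and in 11.8% of all windows. It stood before Mmp14, Adamts9 and Adamtsl3, called higher, and before Mmp20, Mmp21, Mmp24, Adamts13, Adamts20 and Adamtsl4, which were not called. The 15 members without a window were Mmp2, Mmp9, Mmp16, Mmp17, Mmp19, Adamts4, Adamts5, Adamts6, Adamts7, Adamts8, Adamts10, Adamts15, Adamts16, Adamts19 and Adamtsl1. The 34 members with a window had 37 windows, and a member was counted if any of its windows held the motif. The percentages of all windows count single windows, so the units differ. A match describes letters only and is not shown to be a bound site.

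All 4 Timps, 6 Mmps, 4 Adamts proteases and 1 Adamts-like protein were higher in Scf-GFP+ cells, and Mmp8, Mmp9 and Mmp25 were lower. A gene was called when its Benjamini-Hochberg adjusted p from limma, taken over all 19938 genes, was below 0.05 and the groups differed by at least 2-fold. By this rule 15 of the 49 members were called higher (30.6%, against 9.01% of all genes) and 3 were called lower (6.12%, against 7.89%). Together that is 36.7% of the family, while 16.9% of all genes were called in either direction. The median log2 difference, Scf-GFP+ minus whole marrow, was 0.10 over the family and -0.08 over all genes. The family was chosen with earlier results of these data known, so these shares are a description. The groups did not overlap for 29 members (59.2%, against 45.4% of all genes). All 3 Scf-GFP+ arrays lay above all 3 whole marrow arrays for 21 members (42.9%, against 19.0% of all genes) and below them for 8 (16.3%, against 26.4%). Of the 31 members not called, 28 differed by less than 0.5 in either direction, and their full range ran from -0.36 to 0.95. In bulk RNA, fewer cells of a type and less RNA per cell cannot be told apart.

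**Figure D1:**
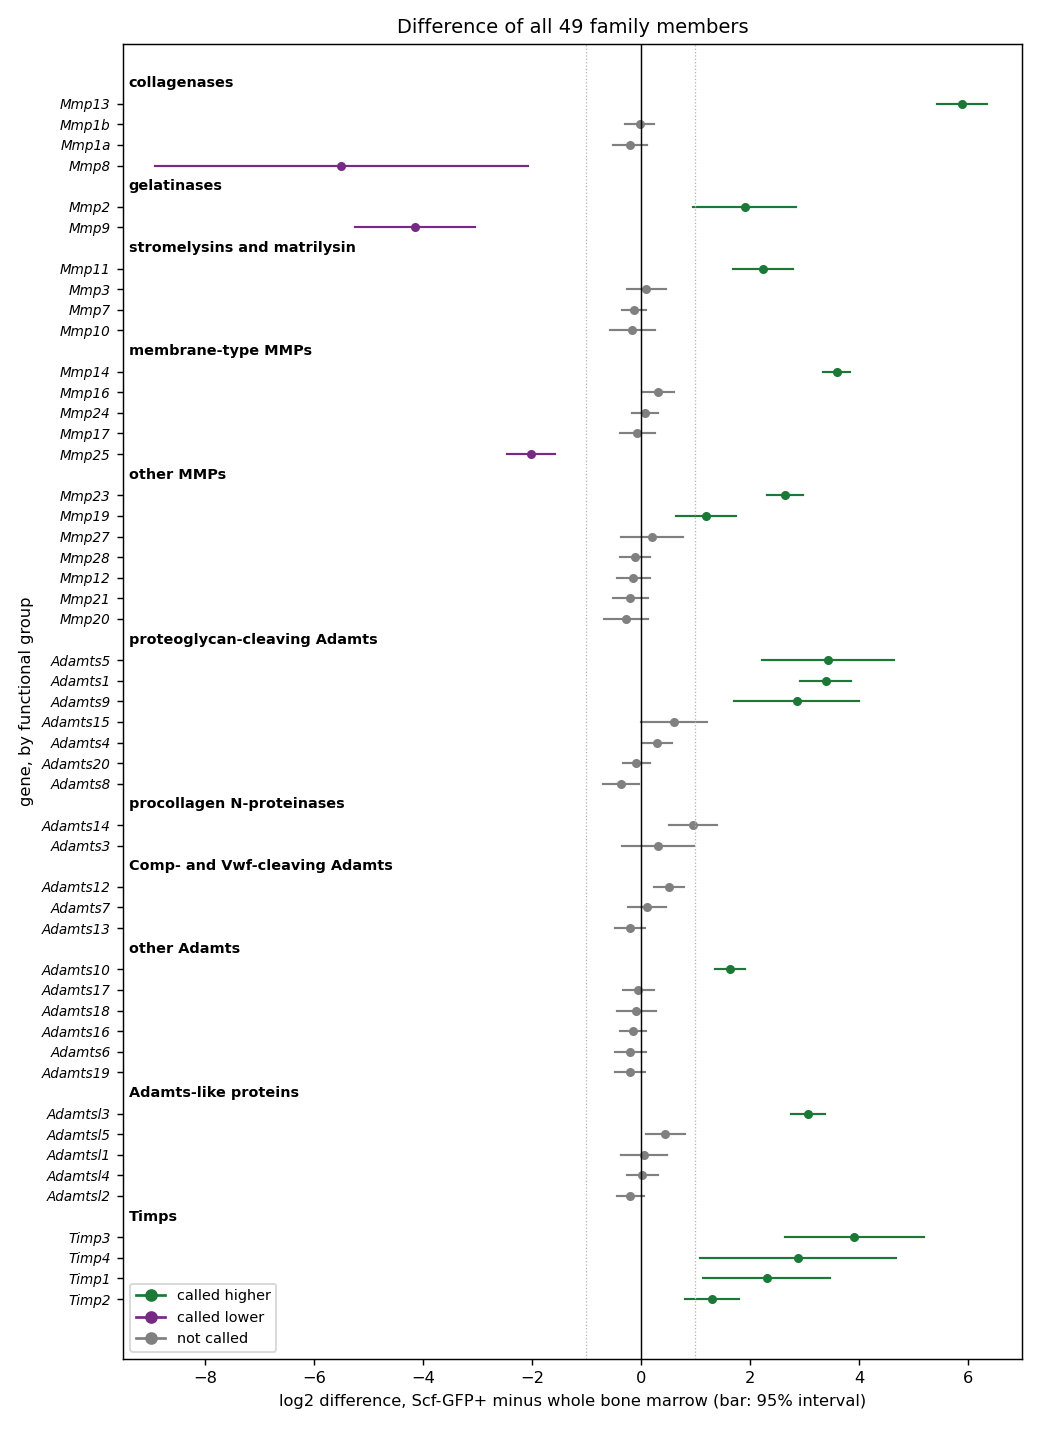
Log2 difference between Scf-GFP+ and whole bone marrow (x axis, log2) for each of the 49 members (y axis), grouped by function, with 95% intervals from limma on 3 arrays per group. Green marks 15 members called higher, all 4 Timps among them, purple 3 called lower and grey 31 not called, 28 of these within 0.5 of 0, with dotted lines at a 2-fold difference.

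Among the collagenases, Mmp13 was 59.3-fold higher in Scf-GFP+ cells, Mmp8 was lower, and Mmp1a and Mmp1b were not called. Mmp13, the main collagenase of mouse bone, had deposited log2 values of 12.11, 12.19 and 11.86 in Scf-GFP+ replicates 1 to 3 and of 5.97, 6.55 and 5.97 in whole marrow replicates 1 to 3, an order kept below. The groups were far apart. The SD was 0.17 over the Scf-GFP+ arrays and 0.34 over the whole marrow arrays, where replicate 2 was the highest. The log2 difference was 5.89 ± 0.19 (limma SE, n = 3 arrays per group, adjusted p = 4.45e-06), the largest in size of the family over all 6 arrays. Mmp8 passed it in size without Scf-GFP+ replicate 1 (-7.33) and with a term for the Xist split described further on (-7.26, against 5.70 for Mmp13). Mmp1a and Mmp1b, the rodent counterparts of interstitial collagenase, differed by -0.20 ± 0.13 and -0.03 ± 0.11, with 95% intervals from -0.51 to 0.11 and from -0.29 to 0.23. Of the cell type markers, 5 of 6 measured osteoblast genes were called higher (9.01% of all genes). The 1 not called was Col1a1, at 0.28 ± 0.10 (adjusted p = 0.0813). None of 6 chondrocyte genes was called in either direction (16.9% of all genes). Col10a1, the collagen of hypertrophic cartilage, measured 5.83 to 6.32 in Scf-GFP+ arrays and 6.05 to 6.08 in whole marrow. Which cells the Mmp13 RNA came from was not tested.

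Along the chromosome 9 cluster, Mmp13 at the head of the cluster was called higher, Mmp8 was called lower, and the other 8 genes were not called. The values of these 8 ranged from 3.62 to 6.33 over all 6 arrays, below the median of every array (6.56 to 6.63). The deposited values carry no detection call, so whether these 8 genes were transcribed at all cannot be read from them. Mmp12, the macrophage elastase and direct neighbour of Mmp13, measured 5.23 to 5.47 in Scf-GFP+ arrays and 5.35 to 5.63 in whole marrow, and the groups overlapped. Mmp3, stromelysin 1, differed by 0.10 ± 0.15, Mmp10, stromelysin 2, by -0.16 ± 0.17 and Mmp7, matrilysin, by -0.13 ± 0.09. The AP-1 motif was thus shared by Mmp13, called higher, and by 6 neighbours that were not called.

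**Figure D2:**
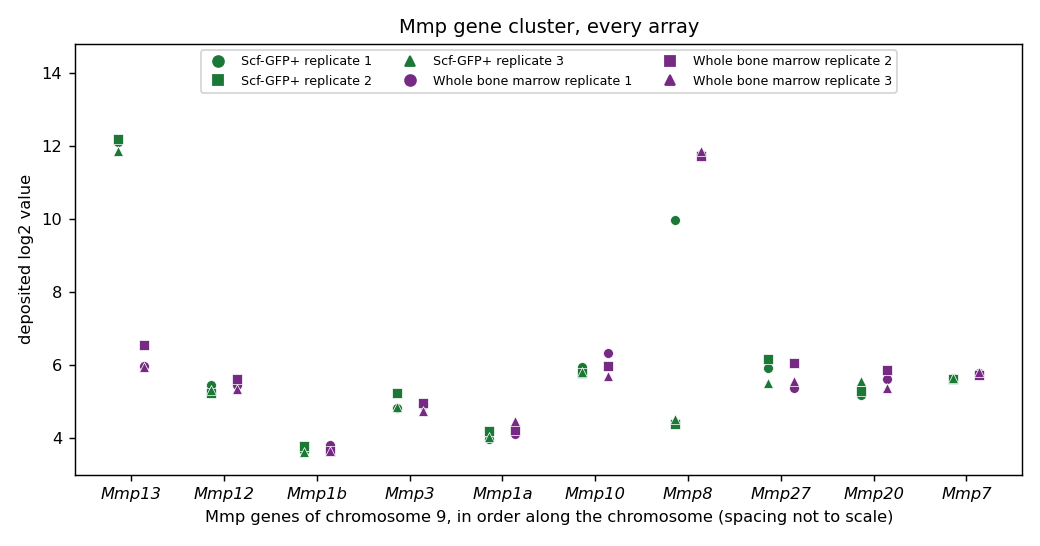
Deposited log2 values (y axis) of the 10 Mmp genes of the chromosome 9 cluster in their order along the chromosome (x axis, not to scale), with 1 point per array. Mmp13 in the 3 Scf-GFP+ arrays (11.86 to 12.19) and Mmp8 in the 3 whole marrow arrays (11.72 to 11.87) stand out, as does Mmp8 at 9.97 in Scf-GFP+ replicate 1. The other 8 genes lie at 6.33 or below on every array.

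The gelatinases went opposite ways, with Mmp2 higher and Mmp9 lower in Scf-GFP+ cells. Mmp2, gelatinase A of connective tissue cells, measured 9.95, 8.46 and 8.51 in Scf-GFP+ cells and 7.20, 6.98 and 7.03 in whole marrow. Replicate 1 stood above the other Scf-GFP+ arrays, and all 3 lay above whole marrow. Mmp2 differed by 1.90 ± 0.39 (3.74-fold, adjusted p = 0.0126), and by 1.41 without replicate 1 (adjusted p = 0.000850). With a term for the Xist split described further on, limma gave 1.44 at an adjusted p of 0.145, and the call was lost. Mmp14, the membrane-type protease that activates the precursor of Mmp2 on the cell surface, measured 10.24, 10.39 and 10.36 in Scf-GFP+ cells and 6.80, 6.63 and 6.77 in whole marrow. It was 12.1-fold higher (3.59 ± 0.11, adjusted p = 3.33e-06), with little spread in either group. Timp2, which inhibits Mmps and also serves as the bridge between Mmp14 and the Mmp2 precursor, measured 11.03, 11.10 and 11.41 against 9.87, 9.51 and 10.24. It was higher by 1.31 ± 0.21 (2.47-fold, adjusted p = 0.00422). All 3 genes of this activation complex were therefore called higher in Scf-GFP+ cells.

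Mmp8, Mmp9 and Mmp25, the members of neutrophil granules, were the 3 members called lower in Scf-GFP+ cells, and 2 of them varied strongly between Scf-GFP+ arrays. Mmp8, neutrophil collagenase, measured 9.97 in Scf-GFP+ replicate 1 but 4.39 and 4.53 in replicates 2 and 3, against 11.79, 11.72 and 11.87 in whole marrow. Replicate 1 thus stood between the others and whole marrow, 47.7-fold above replicate 2. Over all arrays Mmp8 differed by -5.50 ± 1.43 (adjusted p = 0.0306), and without replicate 1 by -7.33 (adjusted p = 1.79e-05). The call was lost without Scf-GFP+ replicate 2 or 3, where the difference was -4.54 and -4.61 (adjusted p = 0.0854 and 0.0838). Leaving out whole marrow replicate 1, 2 or 3 ended it as well, although the difference stayed at -5.50, -5.53 and -5.46 (0.0854, 0.0792 and 0.0896), and with the term for the Xist split (-7.26, 0.0566). Over the 13 alternatives fitted, its adjusted p ranged from 1.79e-05 to 0.0896. Mmp9, gelatinase B of neutrophils and osteoclasts, measured 8.02, 6.78 and 6.10 in Scf-GFP+ cells and 10.94, 11.06 and 11.35 in whole marrow. Replicate 1 was again the highest of its group, and no Scf-GFP+ array reached whole marrow. The difference was -4.15 ± 0.46 (adjusted p = 0.000789) and -4.67 without replicate 1. Mmp25, the membrane-anchored leukolysin, measured 6.66, 6.32 and 6.48 against 8.15, 8.63 and 8.75, a difference of -2.02 ± 0.19 (adjusted p = 0.000341).

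Neutrophil markers outside the family showed the same array apart. All 10 of these markers were highest in Scf-GFP+ replicate 1 within their group, by 2.58 to 6.19 on the log2 scale over the mean of replicates 2 and 3, where Mmp8 was higher by 5.51, Mmp9 by 1.58 and Mmp25 by 0.26. Their mean log2 value was 10.10 in replicate 1, 5.66 and 5.86 in replicates 2 and 3, and 12.26 to 12.30 in whole marrow. Of the 10, 8 were called lower in Scf-GFP+ cells, against 7.89% of all genes. Ly6g, the surface marker of neutrophils, measured 8.56, 4.27 and 4.80 in Scf-GFP+ cells, and S100a8, a calcium-binding protein of their cytoplasm, 12.44, 6.01 and 6.49. Deposited values have no 0, so none of these markers can be said to be absent. The part of neutrophil RNA in the values of Mmp8, Mmp9 and Mmp25 was not tested.

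**Figure D3:**
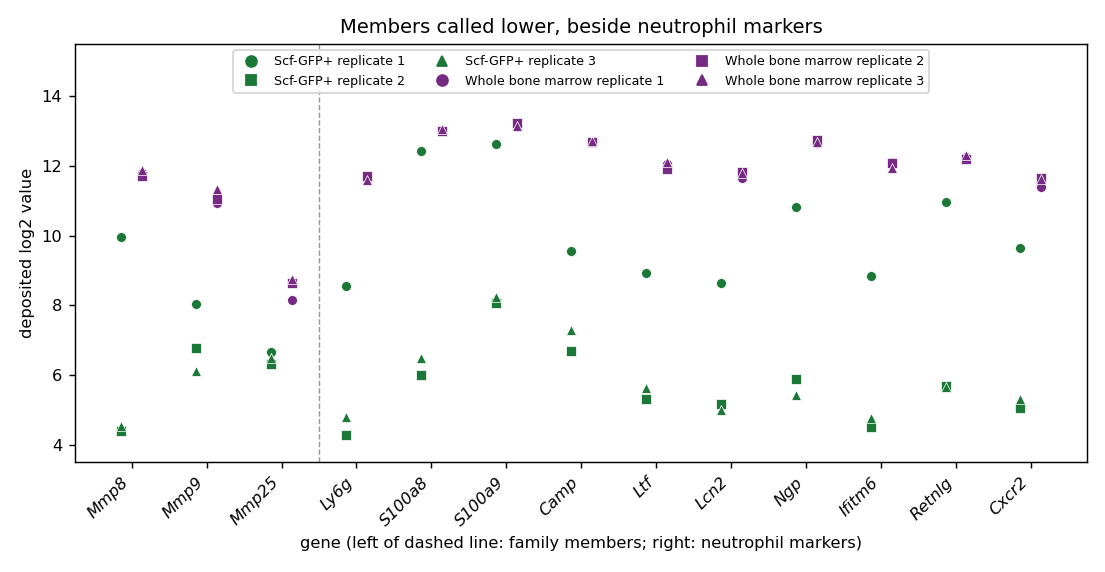
Deposited log2 values (y axis) of the 3 members called lower (left of the dashed line) and of 10 neutrophil markers (right), with 1 point per array. Scf-GFP+ replicate 1 (green circle) lies above Scf-GFP+ replicates 2 and 3 for all 13 genes, by 5.51 for Mmp8 and by 0.26 for Mmp25 against their mean.

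Among the remaining Mmps, Mmp11, Mmp23 and Mmp19 were called higher in Scf-GFP+ cells. Mmp11, stromelysin 3, an enzyme of connective tissue cells that is activated inside the cell by furin-type proteases, measured 9.42, 9.53 and 8.77 against 7.14, 6.76 and 7.12. It was 4.71-fold higher (2.23 ± 0.23, adjusted p = 0.000557). Mmp23, a small membrane protein without the hemopexin domain of most Mmps, measured 9.73, 9.76 and 10.11 against 7.30, 7.24 and 7.14, a difference of 2.64 ± 0.14 (adjusted p = 2.47e-05). In both genes the groups were clearly apart. Mmp19 measured 8.05, 7.16 and 7.61 against 6.46, 6.54 and 6.24 and differed by 1.19 ± 0.23 (adjusted p = 0.00966). Without Scf-GFP+ replicate 1 its difference was 0.97, under the 2-fold limit, so its call rests on that array. The other membrane-type members, Mmp16, Mmp24 and Mmp17, differed by 0.31 ± 0.12, 0.07 ± 0.10 and -0.06 ± 0.13 and were not called. Mmp20, the tooth enamel protease, and Mmp27 differed by -0.27 ± 0.17 and 0.20 ± 0.24, and the other members of that group, Mmp12, Mmp21 and Mmp28, by -0.19 to -0.10.

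**Figure D4:**
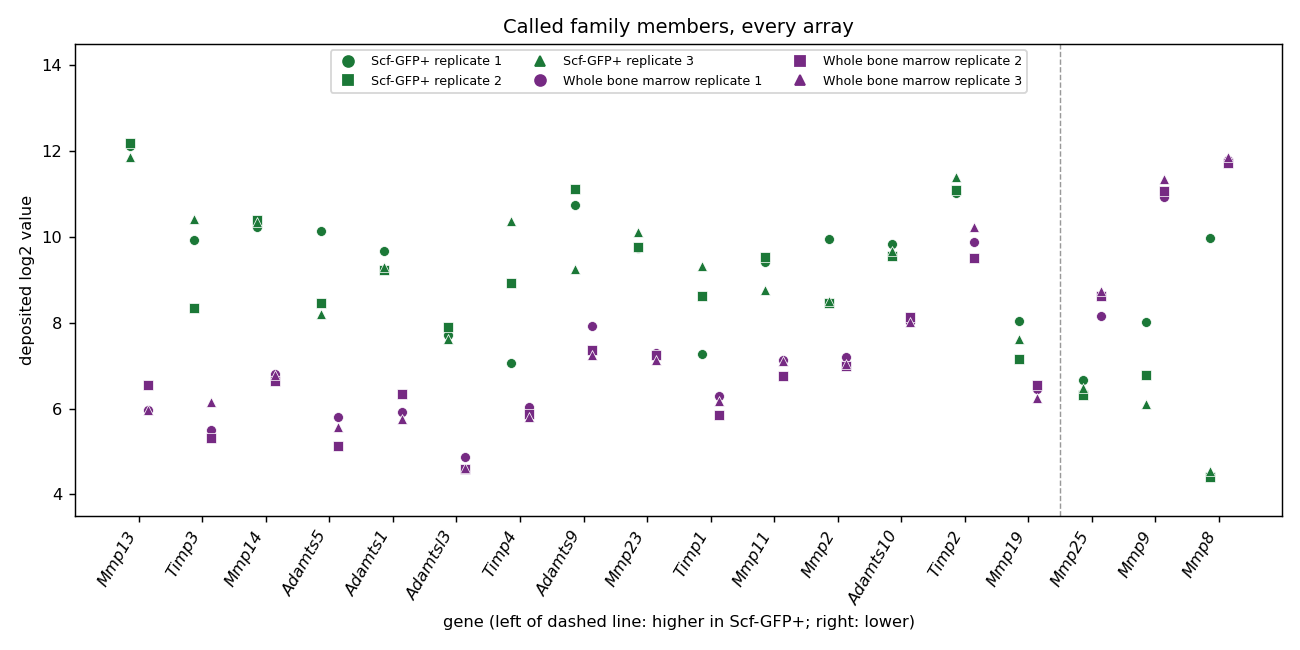
Deposited log2 values (y axis) of the 18 called members (x axis), with 1 point per array, Scf-GFP+ in green and whole marrow in purple. The groups do not overlap for any of the 18, and Scf-GFP+ arrays lie close together for Mmp13 and Mmp14 and far apart for Timp4 (7.07 to 10.37) and Mmp8 (4.39 to 9.97).

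Of 7 Adamts proteases that cut proteoglycans, Adamts5, Adamts1 and Adamts9 were called higher in Scf-GFP+ cells. Adamts5, the main aggrecanase of mouse cartilage, measured 10.15, 8.46 and 8.20 against 5.81, 5.12 and 5.57, 10.8-fold higher in all (3.43 ± 0.51, adjusted p = 0.00301). Replicate 1 stood above the other 2 Scf-GFP+ arrays, and without it the difference was 2.83. Adamts1, which cuts versican and aggrecan, measured 9.66, 9.22 and 9.30 against 5.93, 6.33 and 5.76, with a difference of 3.39 ± 0.19 (10.5-fold, adjusted p = 3.96e-05). Adamts9, which also cuts versican, measured 10.75, 11.11 and 9.25 against 7.92, 7.37 and 7.25, a difference of 2.86 ± 0.48 (7.26-fold, adjusted p = 0.00529). Here replicate 3 was the low array, although still 1.33 above the highest whole marrow array. The array holds 6 rows for Adamts9, and all of them were higher in Scf-GFP+ cells, by 1.74 to 4.50. Adamts15, which measured 6.06, 6.45 and 7.09 against 5.82 to 5.97 in whole marrow, was not called (0.61 ± 0.25, adjusted p = 0.132). Adamts8 at -0.36 ± 0.14 and Adamts4 at 0.29 ± 0.12 were not called either. As for the substrates, Acan (aggrecan) differed by 0.10 ± 0.12 and Vcan (versican) by 0.31 ± 0.29, and neither was called.

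The 2 procollagen N-proteinases analysed, which remove the amino-terminal propeptide of fibrillar collagens, fell short of a call. Adamts2, which belongs to the same group, was not analysed. Adamts14 measured 7.47, 7.24 and 7.94 against 6.58, 6.60 and 6.61, so that the groups did not overlap. Its difference of 0.95 ± 0.19 passed the p threshold (adjusted p = 0.00967) but stayed just under 2-fold, and it passed both thresholds without Scf-GFP+ replicate 2 (1.11, adjusted p = 0.00694). Adamts3 differed by 0.31 ± 0.27 on the row that stood for the gene. Its 16 rows disagreed, with differences from -0.44 to 2.18 and 2 of them above 1. The row with the largest difference measured 9.17, 7.08 and 7.94 against 5.06, 5.68 and 6.90. Adamts12, which cuts cartilage oligomeric matrix protein (Comp), was higher by 0.51 ± 0.12 (adjusted p = 0.0173), below 2-fold, and Adamts7, which cuts the same protein, differed by 0.12 ± 0.15. Adamts13, which cuts von Willebrand factor in blood, differed by -0.21 ± 0.11 and was not called.

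Of the other Adamts genes, Adamts10 and Adamtsl3 were called higher. Adamts10, a protein of fibrillin microfibrils, measured 9.84, 9.56 and 9.67 against 8.02, 8.14 and 8.01 and differed by 1.63 ± 0.12 (3.10-fold, adjusted p = 0.000105). Adamtsl3, a matrix protein without protease domain, measured 7.72, 7.90 and 7.63 against 4.87, 4.59 and 4.62, a difference of 3.06 ± 0.13 (8.35-fold, adjusted p = 1.30e-05). Both genes had tight groups without overlap. The 5 other proteases of no better defined group differed by -0.20 to -0.05, Adamts19 and Adamts6 the most (-0.20 ± 0.11 and -0.19 ± 0.12). Adamtsl5 at 0.45 ± 0.15 and Adamtsl2 at -0.19 ± 0.11 were not called, nor were Adamtsl1 (0.06 ± 0.18) and Adamtsl4 (0.02 ± 0.12).

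All 4 Timps were called higher in Scf-GFP+ cells, and Timp1, Timp3 and Timp4 varied between those arrays more than between whole marrow arrays. Timp3, which binds to the matrix and inhibits Adamts4 and Adamts5 besides Mmps, measured 9.94, 8.35 and 10.41 in Scf-GFP+ cells and 5.49, 5.31 and 6.16 in whole marrow. It was 15.1-fold higher (3.91 ± 0.53, adjusted p = 0.00208), and without replicate 2, its low array, the difference was 4.52. Timp4 measured 7.07 in replicate 1, 8.93 in replicate 2 and 10.37 in replicate 3, a 9.87-fold span, against 6.04, 5.87 and 5.80 in whole marrow. Its lowest Scf-GFP+ array still lay 1.03 above the highest whole marrow array. Timp4 differed by 2.89 ± 0.75 (7.40-fold, adjusted p = 0.0304), by 3.75 without replicate 1 and by 2.10 without replicate 3. Its call was lost without Scf-GFP+ replicate 2 (2.82, adjusted p = 0.0822) and without whole marrow replicate 1, 2 or 3 (0.0793, 0.0814 and 0.0912), while the difference stayed at 2.95, 2.87 and 2.84. Over the 13 alternatives its adjusted p ranged from 0.00196 to 0.0912. Timp1, a soluble inhibitor encoded on the X chromosome, measured 7.28, 8.63 and 9.32 against 6.29, 5.85 and 6.17. It was higher by 2.31 ± 0.49 (4.94-fold, adjusted p = 0.0134) and lay highest in replicate 3, as did Timp2, Timp3 and Timp4.

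The spread between Scf-GFP+ arrays was uneven over the family. The SD over 3 arrays exceeded 0.8 on the log2 scale for 8 members, Mmp8 (3.18), Timp4 (1.66), Timp3 (1.08), Adamts5 (1.06), Timp1 (1.04), Adamts9 (0.99), Mmp9 (0.97) and Mmp2 (0.85). That is 16.3% of the family, against 2.14% of all genes. Among genes called higher, the share was 6 of 15 members and 5.51% of all 1796 genes called higher. In whole marrow no member exceeded an SD of 0.45. The family's median SD, 0.17 for Scf-GFP+ arrays and 0.15 for whole marrow arrays, was near that of all genes (0.17 and 0.16), so the widest spread sat in these 8 members. The limit of 0.8 was not part of the plan. Adamts15 (0.52), Adamts3 (0.45), Mmp19 (0.45) and Mmp11 (0.41) lay under it but also above the median. The 8 members over the limit did not share a high array. Scf-GFP+ replicate 1 was highest for Mmp2, Mmp8, Mmp9 and Adamts5, replicate 2 for Adamts9, and replicate 3 for Timp1, Timp3 and Timp4.

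**Figure D5:**
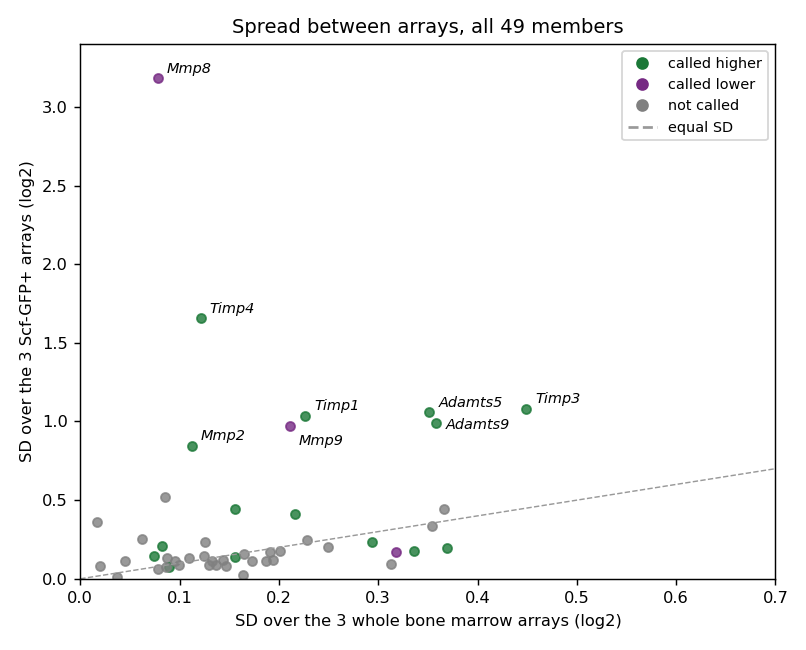
SD over the 3 Scf-GFP+ arrays (y axis, log2) against SD over the 3 whole marrow arrays (x axis, log2) for all 49 members, coloured by call, with a dashed line at equal SD and axes of different scale. The 8 named members lie above an SD of 0.8 in Scf-GFP+ cells, from Mmp2 at 0.85 to Mmp8 at 3.18, and all members lie below 0.45 in whole marrow.

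Some features of the arrays also differed among the Scf-GFP+ replicates. Xist, transcribed from the inactive X chromosome of females, was at 11.50 in Scf-GFP+ replicate 1, at 11.81 in replicate 2 and at 4.99 to 5.10 in the other 4 arrays. Eif2s3y, a Y-linked gene, was at 4.41 and 3.72 in Scf-GFP+ replicates 1 and 2 and at 7.33 to 8.23 in the others, so sex is partly confounded with group. The mean log2 value of 8 endothelial markers was 7.06, 6.97 and 6.49 in Scf-GFP+ replicates 1 to 3 and 6.19 to 6.31 in whole marrow. Of these, only Pecam1 was lower in Scf-GFP+ cells (-1.90 ± 0.26), and it was called. The mean of 6 smooth muscle and pericyte markers was 7.18, 7.35 and 6.78 against 6.46 to 6.54. Rgs5, a pericyte gene at 10.01, 9.98 and 8.66, differed by 3.59. Myh11 and Mcam differed by 0.85 and 0.21, and Acta2, Cnn1 and Cspg4 by -0.65, -0.22 and -0.13. The median difference of the 6 was 0.04, so the raised mean rested largely on Rgs5. The mean of 6 markers of the sorted stromal cells, Kitl, Cxcl12, Lepr, Pdgfra, Pdgfrb and Adipoq, was 11.68, 11.66 and 11.56 against 5.67 to 5.88. The sex-linked genes and the endothelial and pericyte means therefore set replicate 3 apart, while the stromal markers were nearly level. Of the 8 members with wide spread, Adamts5, Adamts9 and Mmp9 were lowest in replicate 3, and Timp1, Timp3 and Timp4 were highest there. Mmp2 and Mmp8 were highest in replicate 1 and lowest in replicate 2. The wider gap set replicate 1 apart for Mmp2, Mmp8, Mmp9, Adamts5, Timp1 and Timp4. It set replicate 2 apart for Timp3 and replicate 3 for Adamts9 only. With a term for the Xist split, which sets only replicate 3 against whole marrow, the log2 difference moved from 2.86 to 1.74 for Adamts9, from 3.43 to 2.70 for Adamts5 and from -4.15 to -5.01 for Mmp9. It moved from 2.89 to 4.47 for Timp4, from 3.91 to 4.76 for Timp3 and from 2.31 to 3.22 for Timp1, all still called. The part of endothelial and pericyte RNA in the values of these members was not tested.

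Other genes of matrix proteolysis, taken from lists of activators and inhibitors, of further proteases and of substrates, were called in both directions. Of 18 measured genes that activate, inhibit or clear the proteases, calls came to 5 higher and 4 lower (9.01% and 7.89% of all genes), and the median difference was -0.07. A2m, a broad protease trap, differed by 4.43 ± 0.13, Lrp1, the receptor that takes up protease complexes, by 2.51 ± 0.21, and Reck, a membrane inhibitor of Mmps, by 2.27 ± 0.16. Thbs2, a thrombospondin that takes part in the uptake of Mmp2, differed by 1.72 ± 0.29. Lcn2, which forms a complex with Mmp9 in neutrophils, differed by -5.50 ± 0.93, and Plaur, the urokinase receptor, by -4.24 ± 0.53. Thbs1 differed by -1.79 ± 0.20 and Cd44, a surface receptor that can hold Mmp9, by -1.38 ± 0.20. Lcn2 was among the 10 neutrophil markers described above and measured 8.63, 5.15 and 5.00 in Scf-GFP+ cells. For Plaur, at 7.94, 5.81 and 6.13, replicate 1 was also the high array. Furin, which activates Mmp14 and Mmp11, differed by 0.08 ± 0.33 and was not called, while Pcsk5, another convertase of the furin type, was higher by 1.22 ± 0.13 (2.32-fold, adjusted p = 0.000635).

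Of 26 other matrix and surface proteases, 10 were higher by the same rule and 5 lower (again against 9.01% and 7.89% of all genes), and the median difference was 0.37. Mme (neprilysin) differed by 6.73 ± 0.12, Fap, a fibroblast peptidase, by 6.48 ± 0.17, Ctsk (cathepsin K) by 5.27 ± 0.20 and Pappa, which cuts binding proteins of insulin-like growth factors, by 4.81 ± 0.34. Those lower were led by proteases of blood cells, Ctsg (cathepsin G) at -5.03 ± 0.15, Elane (neutrophil elastase) at -4.14 ± 0.14, Adam8 at -2.97 ± 0.21 and Dpp4 at -2.46 ± 0.15. Elane measured 5.92, 5.73 and 5.52 and Ctsg 5.30, 5.54 and 5.70 in Scf-GFP+ cells, with the 3 arrays close together. Of 16 measured substrates, the call was higher for 5 and lower for 1, beside the same shares of all genes, and the median was 0.29. Dcn (decorin) differed by 6.05 ± 0.17, Col1a2 by 2.12 ± 0.10, Comp by 1.62 ± 0.39, Col4a1 by 1.50 ± 0.19 and Fn1 (fibronectin) by -2.91 ± 0.13. Comp lost its call without whole marrow replicate 1, 2 or 3 (adjusted p = 0.0590, 0.0716 and 0.0748).

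Cathepsin K and Mmp9 are both osteoclast products, and here they were called in opposite directions. Of 8 osteoclast markers Ctsk was called higher, Acp5, the tartrate-resistant phosphatase, was called lower (-3.14 ± 0.17), and 6 were not called, among them Calcr, the calcitonin receptor, at -0.07 ± 0.10. Of 8 macrophage markers 3 were called lower and none higher, and of 4 measured megakaryocyte markers 1 was called lower. Of 8 endothelial markers 3 were called higher and 1 lower, and of 6 smooth muscle and pericyte markers 1 was called higher. Of all genes, 9.01% were called higher and 7.89% lower, so single calls in lists this short carry little weight.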

How the data were processed

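Expression was measured on 6 arrays, 3 per group, and the authors deposited a single table of log2 values with 28940 rows. RMA, affy and limma are listed in the submitters' processing notes, with neither version nor role. No source used here gives the build of the array annotation. The log2 values were taken as deposited. Exactly 1 gene symbol was annotated for 21789 rows, while 1621 had several and 5530 had none, and these stayed out. Entrez identifiers and a RefSeq table of GRCm38.p6 served to update symbols (91 kept as listed). The row with the highest mean stood for each of the 19938 genes. Mmp15 and Adamts2 were not analysed here. Mmp1a and Mmp1b are close copies whose probes may share signal.

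All genes were fitted with limma 3.58.1 in R 4.3.3 (lmFit, eBayes, no covariates), a procedure tested on simulated data first. A call needed a Benjamini-Hochberg adjusted p under 0.05 and at least a 2-fold difference. Members, functional groups, pathway lists, marker lists and alternatives were chosen with earlier results of these data known. Alternatives covered scaling, a filter on dim genes, the choice of row, the variance model, each array left out, a replicate block, a term for the split by Xist, and the thresholds. Those for the pathway lists were chosen after seeing the data. Named members are all called ones, the Timps, those with the 5 largest SDs in Scf-GFP+ cells and up to 3 uncalled members per functional group, and for each pathway list up to 4 called genes per direction. Further genes named were chosen after their values were seen. Promoter windows and start sites are RefSeq's, GRCm38.p6. The number of arrays limits the precision.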

Additional observations from a re-analysis of the deposited data

How the results depend on the processing

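Of 18 called members, 14 kept direction and call under all 13 alternative fits, the exceptions being Mmp8, Timp4, Mmp19 and Mmp2. The members called higher numbered 14 to 15 and those called lower 2 to 3 with single arrays left out. With the replicate block, 15 were called higher and 3 lower, the same genes as without it, although same-numbered arrays did not deviate together (r = -0.06, -0.02 and 0.07 over genes). With a term for the Xist split, which sets only Scf-GFP+ replicate 3 against whole marrow, Mmp2 (1.44, adjusted p = 0.145), Mmp19 (1.19, 0.0788) and Mmp8 (-7.26, 0.0566) lost the call, while Adamts14 (1.35, 0.00339) and Adamts15 (1.17, 0.0130) gained it. The same term moved the fold of 6 members that stayed called, Adamts5, Adamts9, Mmp9, Timp1, Timp3 and Timp4, by 1.66 to 2.99 times. At an adjusted p below 0.01, 12 were called higher and 2 lower. With no minimum difference, 17 and 3 members were called, beside 2758 and 2635 of all genes. Median-centring and quantile normalization shifted the median gene by 0.01 and 0.02 and changed no member's call. Signs turned for 10 uncalled members. With single arrays left out, the difference ran from -0.11 to 0.018 for Adamts17, from -0.17 to 0.032 for Adamts18, from -0.073 to 0.20 for Adamtsl1 and from -0.054 to 0.087 for Adamtsl4. It ran from -0.30 to 0.0078 for Mmp10, from -0.13 to 0.043 for Mmp17, from -0.077 to 0.032 for Mmp1b and from -0.040 to 0.17 for Mmp3. With the Xist term, the sign turned for Adamts18 (0.094), Adamts7 (-0.038), Mmp27 (-0.15) and Mmp3 (-0.032). It turned for Adamtsl1 with the mean of all rows of a gene (-0.0094), and for Adamtsl4 (-0.029) and Mmp1b (0.080) with quantile normalization. The cause was not tested.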
